A study of Homo sapiens with 6 samples.

Results

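The 10 genes described here encode 7 lysosomal cathepsins, namely CTSA, CTSB, CTSC, CTSD, CTSH, CTSL and CTSZ, with 3 proteins that act on or around them: the inhibitor CST3, the membrane protein LAMP1 and the transcription factor TFEB. They were chosen by symbol with earlier results of these data known. All 10 were matched to 1 gene ID each among the 58174 gene IDs of the table. RNA came from MDA-MB-231, an established cell line from a human breast tumour without hormone receptors. The labels call the groups control (NC) and ARID1A knockout (KO1 and KO2), and ARID1A is part of BAF, a complex that moves nucleosomes. The labels list 2 samples for each of the 3 groups, but the table gives 1 column of values per group. Whether that column holds 1 library or both is not given in the sources used here, so no spread between replicates can be given and n is 1 column per group throughout. Whether KO1 and KO2 are single clones is likewise unknown here.

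Lysosomes are acidic organelles that break down proteins, lipids and sugars. Cathepsins are made as inactive precursors, carried to the lysosome and activated there by cleavage. CTSB, CTSC, CTSH, CTSL and CTSZ are cysteine proteases, CTSD is an aspartic protease and CTSA is a serine carboxypeptidase. CST3 (cystatin C) is a secreted inhibitor of cysteine cathepsins, LAMP1 is an abundant glycoprotein of the lysosomal membrane, and TFEB is a basic helix-loop-helix factor that turns on lysosomal and autophagy genes when it enters the nucleus. In breast cancer cells, cathepsins are also known for being secreted and for degrading extracellular matrix.

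Total estimated counts were 25801499 to 26798753 per column, and genes of the mitochondrial genome took 12.8% of them in NC, 20.5% in KO1 and 16.9% in KO2. ARID1A RNA, in CPM (counts scaled to library size with TMM factors), was 77.3 for NC, 45.7 for KO1 and 83.9 for KO2. The targeted gene's RNA was thus lower than in NC for KO1 only, at a log2 fold of -0.76, which is short of the size rule used below. Whether ARID1A was lost at the level of sequence or protein was not checked for either column. KO1 and KO2 below therefore mean the columns so labelled. The 10 genes fixed as high in this line, VIM, CD44 and AXL among them, were all measured, and PGR and KRT5 had 0 counts in every column. ERBB2 and CLDN4, which had been listed as absent or low, were measured at 75.7 and 94.5 CPM in NC. Of 16 macrophage and monocyte markers, which belong to cells rich in cathepsins, 14 had a mean under 1 CPM. The summed level of that list was 10.7 CPM in NC, 3.74 CPM in KO1 and 10.1 CPM in KO2, mostly CD14 and CSF1R, while CD163, FCGR3A, C1QA, C1QB, TYROBP and SPI1 had 0 counts in all 3 columns. Of 10 fibroblast markers 2 were measured, COL1A1 and PDGFRB, and the list summed to 33.2, 50.8 and 40.0 CPM. The part of these markers in the results below was not tested.

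A gene was counted as higher or lower between 2 columns by a rule of size, with no p-value: a log2 fold of at least 1 in size with a prior count of 2, an exact 95% counting interval of the fold that excludes equality, and a mean of at least 1 CPM. All 10 genes reached that mean. In KO1 against NC, 4 of the 10 were lower (CTSB, CTSD, CTSH and TFEB) and 0 were higher, where 17.4% of the 14524 genes with that mean were lower and 15.4% higher (32.8% in either direction). In KO2 against NC, 3 of the 10 were lower (CTSB, CTSH and LAMP1) and 0 were higher, where 9.98% of all such genes were lower and 11.0% higher (21.0% in either direction). CTSB and CTSH were lower in both, as were 5.65% of all genes, and 0 of the 10 were higher in both, as were 6.22% of all genes. The median log2 fold of the 10 genes was -0.68 in KO1 and -0.50 in KO2, against -0.01 and -0.00 over all genes, and 7 and 9 of the 10 lay below 0. Both comparisons use the same NC column. Because the 10 genes were chosen with earlier results of these data known, their counts and medians beside those of all genes are descriptions only. Of the 10 genes, 3 (CTSA, CTSZ and CST3) lie on chromosome 20, where the median over all measured genes was itself -0.42 in KO1 and -0.44 in KO2. In KO1 and KO2 the median was 0.27 and 0.27 on chromosome 6 (TFEB) and -0.18 and -0.19 on chromosome 11 (CTSC and CTSD). It was -0.26 and -0.23 on chromosome 9 (CTSL), and -0.18 and 0.01 on chromosome 15 (CTSH).

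**Figure D1:**
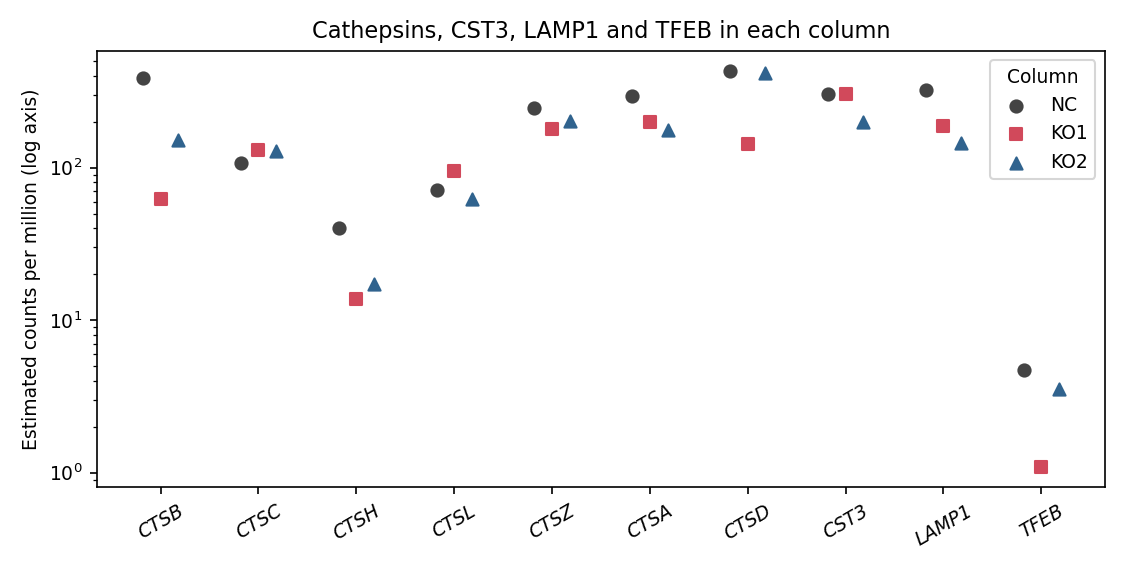
Level in CPM (log axis) of the 10 genes in the control column (NC, circles) and the columns labelled KO1 (squares) and KO2 (triangles), 1 point per column with no replicates. CTSB lies at 387 CPM in NC and at 62.7 and 153 CPM in KO1 and KO2, while CTSC lies between 108 and 131 CPM.

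Because both knockout columns form 1 group of 2 against the lone NC column, a test across all genes is possible only if NC is assumed to vary like them. Under that fit (edgeR's quasi-likelihood test, Benjamini-Hochberg adjusted p under 0.05, 1 residual degree of freedom), 0 of the 10 genes passed, where 0.148% of 18289 genes did. At an unadjusted p under 0.05 there were 2, CTSB and CTSH, where 1409 of the 18289 genes were, and DESeq2 also called 0. No difference below is therefore called as a change between genotypes, and the intervals in brackets are for counting error alone, which treats fragments as independent molecules although they carry no molecular identifiers. Fewer cells with a transcript and less of it per cell cannot be told apart in bulk RNA.

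CTSB (ENSG00000164733, chr8:11842524-11869448, minus strand), a cysteine protease with both endopeptidase and carboxydipeptidase activity, differed most among the 7 cathepsins described here. Gene IDs and positions are those of the deposited table, for which the submitters' processing notes name hg38. It was at 387 CPM in NC, 62.7 CPM in KO1 and 153 CPM in KO2. Both knockout columns lay below NC and KO1 lay below KO2. CTSB was thus 6.18-fold lower in KO1 (5.84 to 6.53) and 2.53-fold lower in KO2 (2.44 to 2.62). In edgeR's quasi-likelihood test of both columns its log2 fold was -1.84 with adjusted p = 0.421. Adjusted p for CTSB ranged from 0.101 to 0.464 over the edgeR fits and DESeq2. Between the knockout columns it was 2.44-fold higher in KO2 (2.30 to 2.59). The median log2 fold of its chromosome, chromosome 8, was -0.21 in both.

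CTSH (ENSG00000103811, chr15:78921058-78949574, minus strand), an aminopeptidase of the cysteine class, was the other of these 7 cathepsins lower in both columns, at 40.4 CPM in NC, 13.8 CPM in KO1 and 17.2 CPM in KO2. Both knockout columns lay well below NC and near each other. Its fold was 2.92 lower in KO1 (2.58 to 3.32) and 2.35 lower in KO2 (2.11 to 2.62), with adjusted p = 0.641 by edgeR's quasi-likelihood test. By the estimated counts, that difference rests mainly on CTSH-213, a transcript that GENCODE 29 marks for nonsense-mediated decay. CTSH-213 had 564, 0 and 13 counts in NC, KO1 and KO2. The protein-coding transcript CTSH-201 had 419, 224 and 327 counts. CTSH-213 and CTSH-201 share 1428 exonic bases, and how reliably fragments were divided between them was not tested. Counted over protein-coding transcripts only, an alternative added after the data were seen, CTSH had a log2 fold of -0.65 in KO1 and -0.39 in KO2 and no longer passed the size rule in either.

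CTSD (ENSG00000117984, chr11:1752752-1764573, minus strand), the main aspartic protease of lysosomes, separated the knockout columns. It was at 433 CPM in NC, 142 CPM in KO1 and 416 CPM in KO2, so only KO1 stood apart. The fold was 3.05 lower in KO1 (2.93 to 3.17) and 1.04 lower in KO2 (1.01 to 1.07), and KO2 was 2.93-fold higher than KO1 (2.82 to 3.05). The small difference of KO2 from NC turned to a log2 fold of 0.05 with total counts outside the mitochondrial genome and 0.03 by summed TPM. TFEB (ENSG00000112561, chr6:41683978-41736259, minus strand) had the same order, at 4.68 CPM in NC, 1.09 CPM in KO1 and 3.53 CPM in KO2. With only 25 to 131 counts per column it is the least precisely measured of the 10, and it was 4.31-fold lower in KO1 (2.79 to 6.89). In KO2 its fold was 1.32 lower (1.01 to 1.74), and KO2 was 3.25-fold higher than KO1 (2.08 to 5.27). CTSB, CTSD and TFEB were the 3 of 10 genes higher in KO2 than in KO1, and 0 were lower, where 14.9% of all genes were higher and 11.2% lower (26.1% in either direction). Adjusted p over both knockout columns was 0.969 for CTSD and 0.962 for TFEB (edgeR).

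LAMP1 (ENSG00000185896, chr13:113297241-113323672, plus strand) was at 323 CPM in NC, 187 CPM in KO1 and 146 CPM in KO2. In CPM, KO2 was the lowest, 2.21-fold below NC (2.13 to 2.29), and passed the size rule, while KO1 was 1.73-fold lower (1.67 to 1.79) and did not. With columns scaled by total count, LAMP1 also passed in KO1. By summed TPM the order of the knockout columns turned, to 83.5 TPM in KO1 and 88.9 TPM in KO2. CTSA (ENSG00000064601, chr20:45890144-45898820, plus strand), the carboxypeptidase that protects beta-galactosidase and neuraminidase in a lysosomal complex, was at 296, 201 and 177 CPM, 1.47-fold (1.42 to 1.53) and 1.67-fold (1.61 to 1.73) below NC. Neither of its folds reached the size rule, and its log2 fold of KO2 over KO1, -0.18, turned to 0.09 with total counts, 0.02 with total counts outside the mitochondrial genome and 0.29 with summed TPM. LAMP1 is on chromosome 13, where the median log2 fold was -0.06 in KO1 and 0.04 in KO2.

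The remaining cathepsins differed less. CTSZ (ENSG00000101160, chr20:58995185-59007247, minus strand), a carboxypeptidase, was at 247 CPM in NC, 180 CPM in KO1 and 202 CPM in KO2, with log2 folds of -0.45 and -0.29. CTSC (ENSG00000109861, chr11:88293592-88337787, minus strand), which activates serine proteases of immune cells by cleaving dipeptides, was the only 1 of the 10 above NC in both columns in CPM, at 108, 131 and 128 (log2 folds of 0.28 and 0.25). By summed TPM its log2 fold in KO1 was -0.16. CTSL (ENSG00000135047, chr9:87725519-87731393, plus strand), an endopeptidase with wide specificity, was at 71.9, 95.7 and 62.5 CPM and lay above NC in KO1 (log2 fold of 0.41) and below it in KO2 (-0.20). By summed TPM it was below NC in KO1 too, at -0.10. None of these 3 genes passed the size rule in either column. CTSL is close in sequence to CTSV and to CTSL pseudogenes, so part of its estimated count depends on how shared fragments were divided.

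CST3 (ENSG00000101439, chr20:23626706-23638473, minus strand), the inhibitor, was at 305.0 CPM in NC, 305.2 CPM in KO1 and 200.3 CPM in KO2. KO1 did not differ from NC beyond counting error (interval of the fold, 0.969 to 1.03), though its log2 fold was -0.23 when scaled by total count, and KO2 was 1.52-fold lower (1.47 to 1.58). To set levels of different genes side by side, deposited TPM values, which are scaled for transcript length, were summed per gene. On that scale CST3 was at 496 TPM in NC, 421 TPM in KO1 and 345 TPM in KO2, and the 5 cysteine cathepsins together at 760.4, 329 and 526 TPM. The ratio of inhibitor to cysteine cathepsin TPM was 0.652 in NC, 1.28 in KO1 and 0.656 in KO2. These sums include noncoding transcripts, such as CTSL-205 with 49.1% of the TPM of CTSL in NC. They also depend on how fragments were divided among transcripts of different length, which was not tested. CTSB made up 39.2% of the cysteine cathepsin TPM in NC, 8.27% in KO1 and 23.1% in KO2. All 7 cathepsins summed to 1454 TPM in NC, 587 TPM in KO1 and 1114 TPM in KO2. Their sum in CPM was 1583 for NC, 827 for KO1 and 1157 for KO2, a smaller drop for KO1. Levels in TPM compared across columns include a shift of all genes. The median log2 fold of KO1 over NC across all genes was -0.38 by summed TPM and -0.01 by CPM.

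By TPM the order in NC was CST3, CTSD (414 TPM), CTSB (298 TPM), CTSA (280 TPM), CTSZ (275.5 TPM), LAMP1 (188.5 TPM), CTSL (91.9 TPM), CTSC (60.4 TPM), CTSH (34.8 TPM) and TFEB (3.25 TPM). No spread is known, so neighbours as close as CTSA and CTSZ cannot be ordered beyond it. In KO1, CTSB went from rank 3 to rank 8, at 27.2 TPM, and CTSZ stood second, at 154 TPM. In KO2, CTSD stood first at 421 TPM and CTSB was at rank 5 with 121 TPM. TFEB and CTSH were the 2 lowest in every column.

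**Figure D2:**
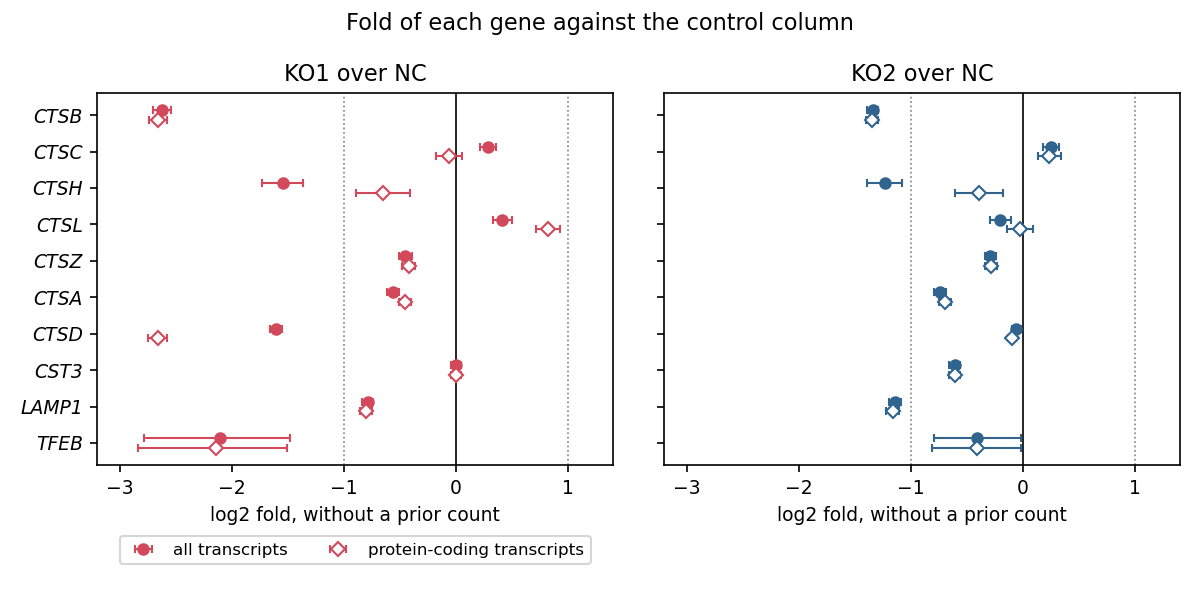
Log2 fold of the column labelled KO1 (left) and KO2 (right) over NC, without a prior count, for all transcripts of a gene (filled circles) and for protein-coding transcripts only (open diamonds). Bars are exact 95% counting intervals and dotted lines mark log2 folds of -1 and 1; CTSD in KO1 lies at a log2 fold of -2.66 for protein-coding transcripts, far below its value over all transcripts, and CTSH moves inside the dotted lines.

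The table gives estimated counts per transcript, and for several of these genes a different transcript carried the gene in different columns. For CTSB, CTSB-228 held 89.3% of the gene's TPM in NC and 35.2% in KO1, and had 1 count in KO2. CTSB-232, with 1 count in NC and 0 in KO1, held 84.3% in KO2. These 2 transcripts share 1906 exonic bases, differ by 103 and 83 bases, and have the same coding bases. CTSB-202, which has a longer end, had 1307, 1026 and 732 counts. How reliably fragments were divided among such close transcripts was not tested. Counts summed per gene do not depend on it, but summed TPM does, through transcript length: the log2 fold of CTSB in KO1 was -3.45 by summed TPM against -2.63 by counts.

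The transcripts of CTSD differed from each other. The protein-coding CTSD-207 had 9408, 323 and 8972 counts in NC, KO1 and KO2. CTSD-213, also protein-coding, went the other way with 379, 742 and 175 counts and held 16.6% of the gene's TPM in KO1. The shorter CTSD-214, a processed transcript with 5 exons from the end of the gene and no coding frame, had 1443, 1864 and 1649 counts, and its share of the gene's TPM was 15.8% in NC, 65.3% in KO1 and 18.4% in KO2. Over protein-coding transcripts alone CTSD was at 380.2, 60.0 and 355 CPM, 6.34-fold lower in KO1 (5.99 to 6.71), which is more than over all transcripts. Of its 1262 exonic bases, CTSD-214 shares 1241 with CTSD-213 and 1039 with CTSD-207. How reliably fragments were divided among them was not tested, and the interval does not cover it. A read-through gene on the same strand, AC068580.4 in GENCODE 29, overlaps CTSD and had 909, 835 and 1368 counts. With it added, CTSD was still lower in KO1, at a log2 fold of -1.38, and its log2 fold in KO2 was -0.00.

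TFEB is transcribed from several starts. TFEB-204, which begins at position 41735608 of chromosome 6, had 87 counts in NC and 0 in both knockout columns, and TFEB-202, which begins inside the gene at 41691476 and has a longer coding frame, had 33 counts in NC and 0 in both. TFEB-201, which begins at 41735060, had 0, 24 and 97 counts in NC, KO1 and KO2. A count of 0 allows up to 3 counts. TFEB-204 and TFEB-201 have the same 1428 coding bases and differ in 259 and 282 other exonic bases. The columns therefore differ in the start to which TFEB fragments were assigned as well as in the summed level. Taking only the transcript with the highest mean TPM, TFEB-201, would put TFEB higher than NC in both knockout columns, at log2 folds of 3.88 and 5.54.

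CST3 fragments were also assigned to different transcripts. CST3-202 had 6684, 2295 and 1422 counts in NC, KO1 and KO2, and CST3-201 had 87, 4340 and 3352. They share 770 exonic bases and all 438 coding bases. For CTSA, CTSA-203 went from 22.5% of the gene's TPM in NC to 76.0% in KO1 and 68.8% in KO2, while CTSA-204, CTSA-201 and CTSA-202 had 1057 to 1904 counts each in NC and at most 269 in a knockout column. CTSA-201 and CTSA-203 have the same 1440 coding bases. CTSA also overlaps PLTP and NEURL2 on the opposite strand, with 387 and 43 counts in NC, and whether the counting used strand is not given in the sources used here.

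Of the remaining genes, LAMP1-201 held 96.4% to 97.7% of LAMP1 and CTSZ-201 held 90.9% to 93.8% of CTSZ in every column. CTSC was split between the coding CTSC-201, at 1078, 939 and 1396 counts, and the retained-intron transcript CTSC-208, at 1595, 1911 and 1936 counts. Over protein-coding transcripts CTSC had a log2 fold of -0.07 in KO1, so its higher count there was assigned to transcripts without a coding frame. CTSC-201 and CTSC-208 share 853 exonic bases, and how reliably fragments were divided between them was not tested. For CTSL the protein-coding transcripts were at 43.1 CPM in NC, 76.0 CPM in KO1 and 42.4 CPM in KO2, while the noncoding CTSL-205 had 715, 323 and 540 counts and went from 49.1% of the gene's TPM in NC to 22.3% in KO1.

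**Figure D3:**
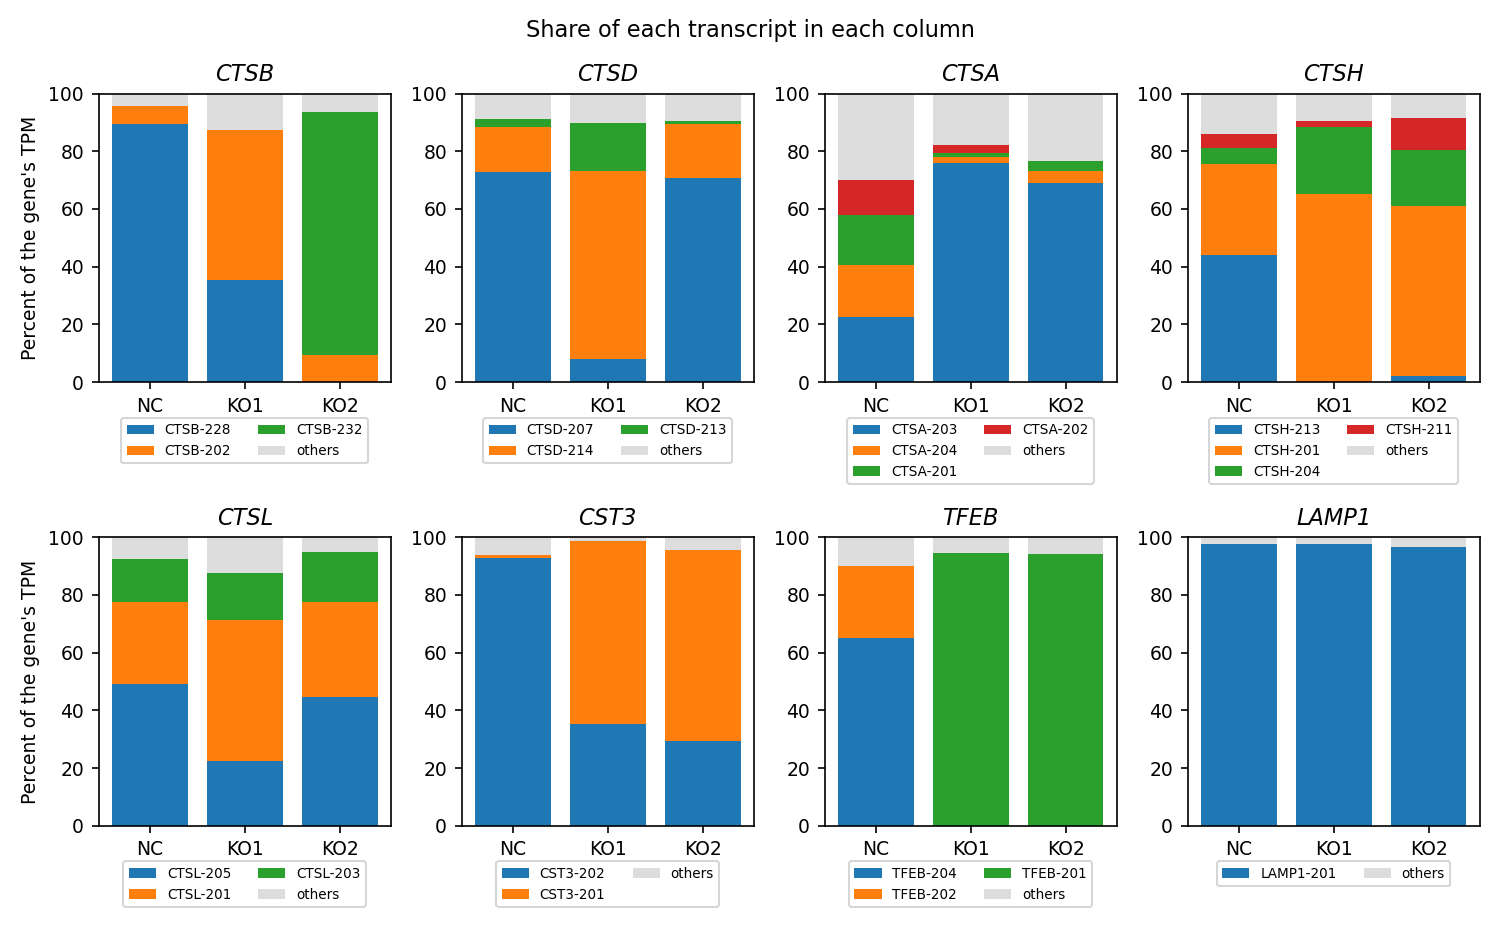
Percent of each gene's TPM held by each transcript in NC, KO1 and KO2, for 8 of the 10 genes; transcripts with at least 10% in any column have a colour and the rest are grey. CTSB, CST3, CTSD, CTSH, CTSL and TFEB have another leading transcript than NC in at least 1 knockout column, whereas CTSA-203 leads CTSA in all 3 and LAMP1-201 holds over 96% in all 3.

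TFEB binds an E-box, CACGTG, best known in lysosomal gene promoters within a longer element in which GT precedes it and AC follows it. Both motifs were searched on both strands from 250 bases before to 50 after each RefSeq start site (GRCh38.p14), in 35116 windows of 27305 genes, and windows were found for 9 of the 10 genes, all but CTSB. The E-box lies inside the longer element, and both read the same on either strand. CACGTG was in 7.26% of all windows (8.77% of genes) and in those of LAMP1, CTSA and CTSD, which were the 3 of 9 genes with a match. The longer element was in 0.353% of all windows and in 0 of these 9 genes. In the lists of other lysosomal genes below, 27 of 104 genes with a window held CACGTG. LAMP1 held 6 matches, the most in any window of the table, of which 5 lie whole before the start and 1 crosses it. A match is a description of letters, and binding was not measured.

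The 250 bases before the start are printed 5′ to 3′ on the gene's strand for the 3 genes with a match, with each CACGTG in capitals. LAMP1 is chr13:113296989-113297238 (plus strand), CTSA is chr20:45891085-45891334 (plus strand) and CTSD is chr11:1763928-1764177 (minus strand).
LAMP1: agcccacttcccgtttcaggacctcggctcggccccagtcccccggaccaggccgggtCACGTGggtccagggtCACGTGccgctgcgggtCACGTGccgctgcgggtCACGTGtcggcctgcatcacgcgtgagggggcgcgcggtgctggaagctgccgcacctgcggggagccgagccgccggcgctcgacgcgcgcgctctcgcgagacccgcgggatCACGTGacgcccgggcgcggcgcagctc
CTSA: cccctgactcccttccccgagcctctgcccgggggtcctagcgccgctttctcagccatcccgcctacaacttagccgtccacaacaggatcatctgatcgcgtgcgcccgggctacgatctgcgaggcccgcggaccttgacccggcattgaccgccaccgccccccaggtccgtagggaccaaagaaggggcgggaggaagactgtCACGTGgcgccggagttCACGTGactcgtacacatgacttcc
CTSD: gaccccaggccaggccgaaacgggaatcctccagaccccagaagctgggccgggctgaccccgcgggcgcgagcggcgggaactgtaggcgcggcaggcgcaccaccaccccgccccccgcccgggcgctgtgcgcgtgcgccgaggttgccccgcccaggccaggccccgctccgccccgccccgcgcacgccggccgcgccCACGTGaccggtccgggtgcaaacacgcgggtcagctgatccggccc

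Any link between a match and the folds was not tested, and CTSB, lower in both columns, had no window. LAMP1 and CTSA were below NC in both columns in summed counts, while CTSD was 1.04-fold lower in KO2 and 3.05-fold lower in KO1. CTSH and TFEB, lower in KO1, had no match in any window.

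Windows without a match are shown for TFEB at the starts to which its fragments were assigned differently between the columns. How reliably those fragments were divided was not tested. Also shown are the inhibitor CST3 and CTSL, which had the highest fold in KO1 of the 7 cathepsins among the 10 genes, in CPM. The upstream TFEB start (TFEB-204, with counts in NC) has the window chr6:41735609-41735858. The downstream start (TFEB-201, with counts in the knockout columns) has chr6:41735061-41735310, and both are on the minus strand. CST3 is chr20:23637956-23638205 (minus strand) and CTSL is chr9:87725869-87726118 (plus strand).
TFEB upstream start: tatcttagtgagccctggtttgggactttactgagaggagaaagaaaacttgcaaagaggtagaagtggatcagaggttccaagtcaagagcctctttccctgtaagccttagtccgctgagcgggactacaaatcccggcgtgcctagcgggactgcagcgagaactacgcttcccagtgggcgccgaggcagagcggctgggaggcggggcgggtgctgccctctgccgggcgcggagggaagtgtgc
TFEB downstream start: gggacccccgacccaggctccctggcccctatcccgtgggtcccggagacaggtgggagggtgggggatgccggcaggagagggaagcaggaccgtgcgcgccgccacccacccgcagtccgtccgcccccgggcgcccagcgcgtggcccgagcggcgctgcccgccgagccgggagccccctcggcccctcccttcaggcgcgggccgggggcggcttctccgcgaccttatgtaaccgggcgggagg
CST3: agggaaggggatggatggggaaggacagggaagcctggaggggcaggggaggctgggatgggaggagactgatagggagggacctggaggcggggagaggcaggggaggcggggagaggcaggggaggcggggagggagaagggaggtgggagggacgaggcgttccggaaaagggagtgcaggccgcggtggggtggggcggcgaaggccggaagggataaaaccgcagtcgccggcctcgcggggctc
CTSL: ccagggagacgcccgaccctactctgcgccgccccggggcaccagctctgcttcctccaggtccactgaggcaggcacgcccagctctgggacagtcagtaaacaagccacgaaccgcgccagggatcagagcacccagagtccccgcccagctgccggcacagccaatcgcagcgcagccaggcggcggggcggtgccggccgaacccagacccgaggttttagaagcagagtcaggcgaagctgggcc

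The 2 TFEB windows differ in base composition, with 59.6% G and C before the upstream start and 78.4% before the downstream start. The CST3 window had 70.8% and the CTSL window 69.2%.

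**Figure D4:**
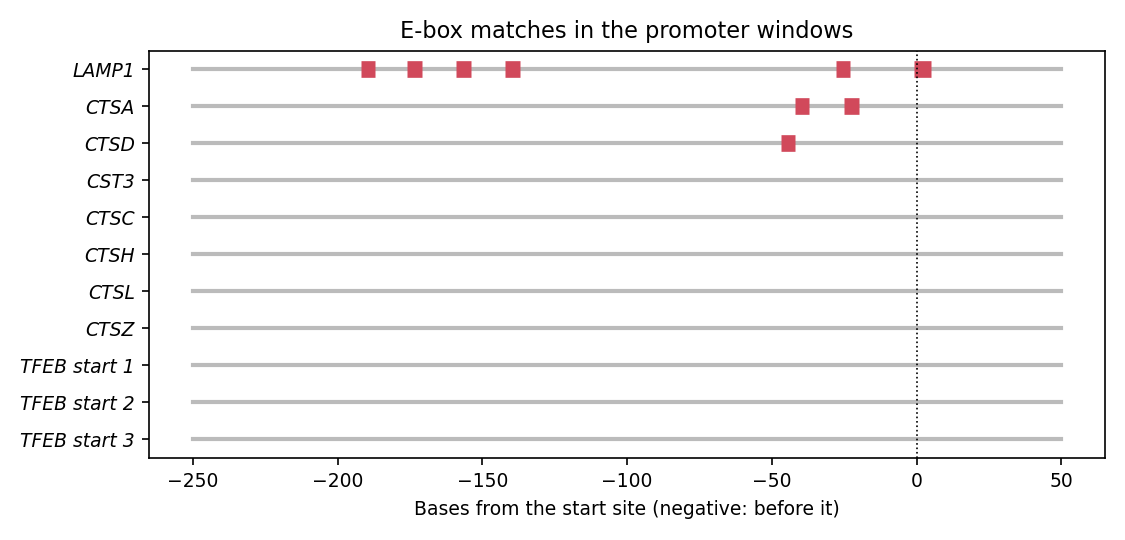
Position of each CACGTG match (red) in the windows of 9 genes, in bases from the RefSeq start site, with TFEB at 3 starts. The 6 matches of LAMP1 begin 192 to 1 bases before the start, those of CTSA 42 and 25 bases before it and that of CTSD 47 bases before it.

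Beside the counts in this list and those below, 17.4% of all genes were lower and 15.4% higher in KO1. In KO2, 9.98% of all genes were lower and 11.0% higher. In both columns, 5.65% were lower and 6.22% higher. Among the other cathepsins, 6 of 8 listed genes were measured. CTSS, a cysteine protease of antigen-presenting cells that trims the invariant chain, was higher in both columns, at 22.0 CPM in NC, 50.9 CPM in KO1 and 49.5 CPM in KO2. CTSV, the closest relative of CTSL, was lower in both, at 6.25, 1.39 and 2.03 CPM. CTSW, known from cytotoxic lymphocytes, had 100, 0 and 7 counts in NC, KO1 and KO2. The edgeR test called 0 of the 6, with 1 at an unadjusted p under 0.05, CTSW.

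Of 11 other cathepsin inhibitors only 4 were measured. CST6 (cystatin E/M), a secreted inhibitor of legumain and of CTSL and CTSV, was the gene farthest above NC in any list, with 13, 440 and 376 counts in NC, KO1 and KO2 (log2 folds of 5.15 and 4.64). Its adjusted p was 0.0816 (edgeR). CST7 (cystatin F) was lower in both, at 9.64, 1.61 and 0.750 CPM, and so was CST1, with 140, 42 and 22 counts. The cytosolic inhibitor CSTB was at 210.1, 306.5 and 180.8 CPM and did not pass the size rule.

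TFEB's relatives TFE3 and MITF, chosen after their values were seen, did not share its direction. Of 19 measured genes of the TFEB family and its regulators, KO1 had 5 higher and 0 lower, and KO2 had 2 higher and 1 lower (median log2 folds of 0.11 and -0.13). Of these 19 genes, 9 had a log2 fold below 0 in KO1 and 10 in KO2. TFE3, the close relative with overlapping targets, was at 137 CPM in NC, 424 CPM in KO1 and 198 CPM in KO2. MITF, another relative, was at 2.54, 9.61 and 3.75 CPM. Both were highest in KO1, where TFEB was lowest. RRAGB, a Rag GTPase that recruits mTORC1 to the lysosome, was higher in both columns, at 6.96, 20.2 and 17.4 CPM.

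Most other lysosomal genes did not pass. Of 35 lysosomal hydrolases outside the cathepsins, KO1 had 2 higher and 6 lower, and KO2 had 1 higher and 4 lower (medians of -0.31 and -0.22). IDS, the iduronate sulfatase, was higher in both at 55.7, 141 and 208 CPM. GALC, the galactocerebrosidase, was lower in both at 46.8, 20.8 and 17.5 CPM. IDS has a near-identical pseudogene that may share fragments with it. Of 6 activators and cofactors, 1 was lower in KO1, CLN3, at 17.2 CPM in NC, 3.74 CPM in KO1 and 14.4 CPM in KO2, and 0 passed in KO2 (medians of -0.52 and -0.33).

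Of 20 lysosomal membrane proteins other than LAMP1, 7 were lower and 1 higher in KO1, and 2 were lower and 0 higher in KO2 (medians of -0.73 and -0.02). LAPTM5, a lysosomal membrane protein best known from blood cells, was lower in both, at 297 CPM in NC, 43.7 CPM in KO1 and 81.7 CPM in KO2 (adjusted p = 0.187, edgeR). LAMP2, the partner of LAMP1, was at 113.5, 112 and 160 CPM and did not pass.

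The proton pump, sorting and autophagy lists had few genes past the rule. Of 15 proton pump subunits, KO1 had 1 higher and 2 lower, and KO2 had 0 higher and 1 lower (medians of 0.10 and -0.17). ATP6AP2 was at 16.8, 78.7 and 21.4 CPM, ATP6V0A1 had 1436, 207 and 1395 counts, and ATP6V1B2 was at 97.2, 56.5 and 36.6 CPM. Of 15 sorting genes, KO1 had 1 in each direction and KO2 had 1 higher (medians of -0.47 and -0.13), with the retromer subunit VPS26A at 44.3, 114 and 117 CPM. Of 17 measured autophagy genes, KO1 had 3 higher and 2 lower, and KO2 had 1 in each direction (medians of 0.06 and -0.13). GABARAPL1, an ATG8-family protein of autophagosomes, was higher in both, at 5.29 CPM in NC, 57.4 CPM in KO1 and 26.7 CPM in KO2.

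**Figure D5:**
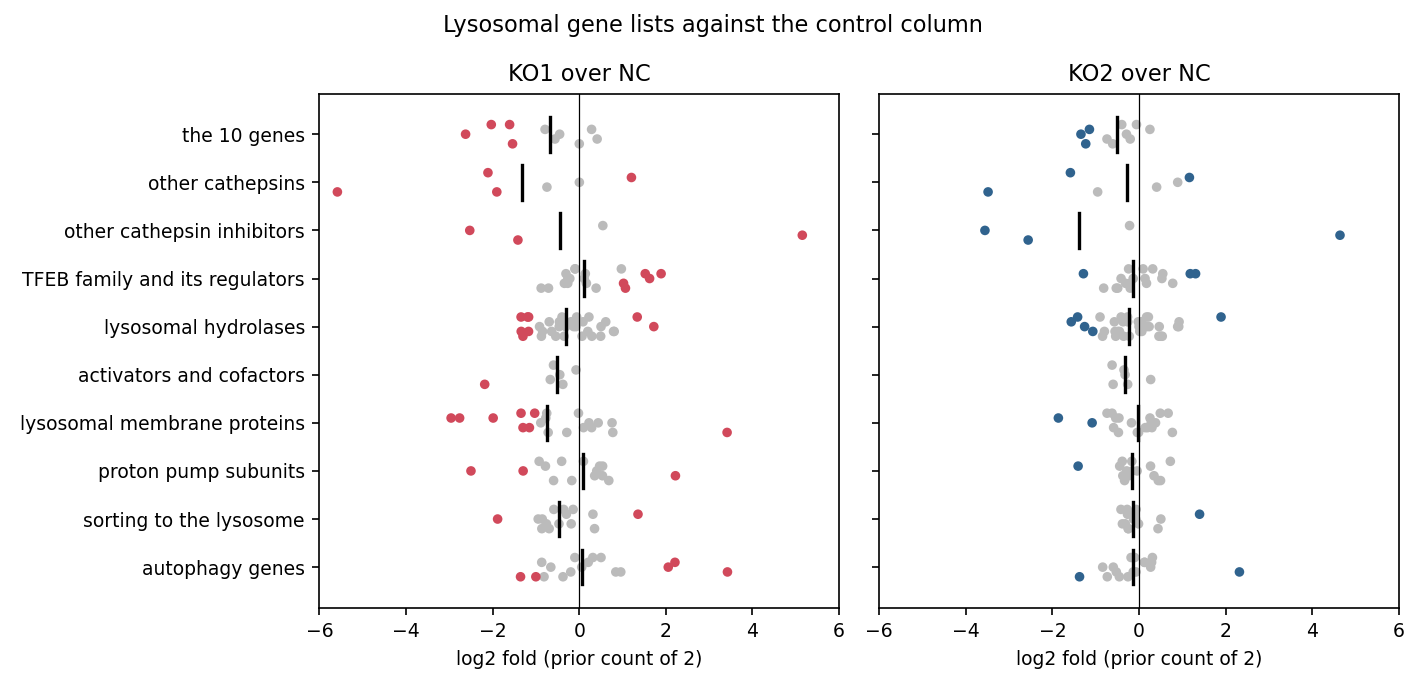
Log2 fold over NC (prior count of 2) of every measured gene of the 10 described here and of 9 lists of related genes, in KO1 (left) and KO2 (right); coloured points passed the size rule, grey points did not, and black bars are list medians. The 10 genes have medians of -0.68 and -0.50, and CST6 is the point farthest to the right in both panels.

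Over all 9 lists, 24 of 137 measured genes were lower and 15 higher in KO1, and 13 were lower and 7 higher in KO2, with medians of -0.26 and -0.17. In both columns 7 were lower and 6 higher, where 5.65% of all genes were lower in both and 6.22% higher in both. The edgeR test called 0 of them, and 8 had an unadjusted p under 0.05, where 1050 of the 14524 genes did. The lower counts are near the shares over all genes, 17.4% in KO1 and 9.98% in KO2, and the higher counts are below theirs, 15.4% and 11.0%.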

How the data were processed

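RNA-seq of MDA-MB-231 cells was deposited as 1 table of 199167 transcripts with 1 column each for NC, KO1 and KO2. The authors' estimated counts per transcript and their TPM were used, named so per the file headers; the 3 FPKM columns were not used. The deposited Count values are whole numbers given to overlapping transcripts alike and were therefore treated as estimated counts, not raw counts. The submitters' processing notes list CASAVA, Bowtie2, featureCounts and the build hg38 but give no version or step for any of them, and which tool made the transcript estimates is not given in the sources used here. Reads came from a stranded total RNA kit, per the labels' protocols.

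Counts were summed per gene ID, with current symbols for 57392 of 58174 IDs. Transcript types, names and exons come from GENCODE 29, in which 196287 of the transcripts have identical coordinates. The annotation behind the deposited table is not given in the sources used here. Scaling and the test used edgeR 4.0.16 (TMM, filterByExpr, robust quasi-likelihood) in R 4.3.3, with DESeq2 1.42.0 as an alternative, and were tested on simulated data. Intervals are Clopper-Pearson, conditional on the summed count. The p-values set the difference from NC against a spread taken from the KO1 and KO2 columns. These carry different labels, so that spread may hold differences between the 2 groups as well as technical ones.

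The 10 genes and all lists were chosen with earlier results of these data known. In the lists, genes were named by a rule: up to 3 per direction past the size rule in both knockout columns, ranked by the smaller fold, and otherwise up to 2 per direction in 1 column. A gene that this rule names is not reported here. CSTB, TFE3, MITF and LAMP2, and the promoters of LAMP1, CTSA and CTSD, were chosen after their values were seen. Alternatives covered scaling, prior count, minimum level, fold, TPM and the choice of transcripts.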

Additional observations from a re-analysis of the deposited data

Results flagged for a closer look

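CTSL lay on opposite sides of NC in the columns labelled KO1 and KO2, with log2 folds of 0.41 and -0.20, and each exact counting interval excluded equality. The difference between the columns was not tested, because each has no replicate. The value in KO1 turned to -0.10 by summed TPM and to -0.86 with the transcript of the highest mean TPM only, the noncoding CTSL-205. Under each of these settings CTSL was below NC in both columns. Over protein-coding transcripts only, an alternative added after the data were seen, the log2 folds were 0.82 in KO1 and -0.03 in KO2. In KO2 the interval of that fold, 0.906 to 1.06, included equality.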

How the results depend on the processing

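No paired analysis was possible because the columns carry no replicate number, and no replicate could be left out with 1 column per group. Each knockout column alone against NC leaves no residual degree of freedom, so only folds are given. Over all fits, 0 of the 10 genes were called. The calls over all genes moved from 27 to 14 with DESeq2 size factors, 15 without mitochondrial genes, 493 without a filter and 306 with DESeq2. Genes lower in KO1 numbered 3 to 6 over the alternatives, where 12.5% to 28.0% of all genes were lower. In KO2 they numbered 2 to 5, where 8.42% to 21.0% of all genes were lower. The 5 in KO2 were found at a fold of at least 1.5 (21.0% of all genes). At that fold 2 genes were lower in KO2 than in KO1 (21.9% of all genes). CTSB was lower in both columns under every alternative run. Scaling by total count moved the median log2 fold of all genes by -0.23 in KO1, and summed TPM by -0.36, where CTSA and LAMP1 also passed as lower. Keeping only the transcript with the highest mean TPM put 2 genes higher in KO1 (CTSA and TFEB) and 1 higher in KO2 (TFEB). Under that setting 21.0% of all genes were higher in KO1 and 15.8% in KO2. It also reversed TFEB in KO1, to 3.88, and CTSB in KO2 over KO1, to -7.13. Of the 10 genes 1 was then lower in KO2 than in KO1 (17.8% of all genes). That setting drops the transcript that carries the gene in another column. Among genes not past the size rule, CTSA in KO1 went from -0.56 to 1.09 and TFEB in KO2 from -0.40 to 5.54 with that transcript only.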
